A study of Caenorhabditis elegans with 2 samples.

Results

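Of the 2328 reproducible CEH-27 peaks, 258 (11.1%) lay on an autosome close to the 5' end of a single protein-coding gene. A peak entered this set when its summit fell between 1000 bp upstream and 200 bp downstream of a 5' end of exactly 1 protein-coding gene, within 200 bp of the nearest such end, and more than 200 bp from any tRNA gene. The 258 peaks made up 14.3% of the 1803 autosomal peaks and belonged to 255 genes. They are called the 5'-proximal peaks in what follows. The choice used position and annotation only, so distance from the 5' end is a property of the set and not a result.

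The data are ChIP-seq of CEH-27 in whole Caenorhabditis elegans, 1 group with 2 biological replicates, numbered 1 and 4. The worms were of strain OP139, which carries the transgene wgIs139, a ceh-27 fosmid fused to TY1, EGFP and 3xFLAG tags, with unc-119(+) as marker in an unc-119(ed3) background. They were young adults at 73 hours, pooled male and female, grown from a culture synchronised by bleaching and starvation at the L1 stage. Sonicated chromatin with a stated size range of 200 to 800 was precipitated with anti-GFP per the description, although the antibody field reads ceh-27. All animals carried the tagged transgene, the cells that express it are not stated, and the chromatin came from whole worms, so the values cannot be assigned to a cell type. A shared control is named beside the files and was not analysed here.

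CEH-27 belongs to the NK-2 class of homeodomain proteins, a class known to bind sites with the core AAGTG. In C. elegans many transcripts receive a spliced leader by trans-splicing, so that an annotated 5' end often marks the splice acceptor, and transcription can begin further upstream. Many genes also lie in operons, where a gene is transcribed from the promoter of a gene upstream of it on the same strand.

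The sequences around the summits of 14 of the 5'-proximal peaks are shown because they come from the strongest peaks or from the gene groups described below, and because they display how the short words counted later are arranged. Each runs 50 bp to either side of the summit and is written 5' to 3' on the strand of the gene (assembly WBcel235, the same as ce11). Capitals mark matches on either strand to 4 words, namely AAGTG for the NK-2 core, GAGAGA for a GA repeat, CTGCGTC as a 7-base word, and GCGCGC for a CG repeat.
cdc-48.1 (chrII:10563536-10563636, minus strand): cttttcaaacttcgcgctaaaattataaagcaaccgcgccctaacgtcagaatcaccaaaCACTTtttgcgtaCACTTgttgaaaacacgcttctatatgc
lin-9 (chrIII:8904251-8904351, minus strand): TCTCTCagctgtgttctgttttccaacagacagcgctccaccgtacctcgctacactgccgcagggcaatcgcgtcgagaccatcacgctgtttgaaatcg
T07F10.3 (chrV:12870081-12870181, minus strand): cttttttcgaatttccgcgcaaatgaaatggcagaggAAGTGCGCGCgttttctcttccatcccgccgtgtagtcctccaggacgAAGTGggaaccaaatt
tos-1 (chrV:9344259-9344359, minus strand): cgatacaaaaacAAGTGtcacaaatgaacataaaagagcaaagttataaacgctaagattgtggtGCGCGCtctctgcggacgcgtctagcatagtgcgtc
drap-1 (chrV:9731171-9731271, plus strand): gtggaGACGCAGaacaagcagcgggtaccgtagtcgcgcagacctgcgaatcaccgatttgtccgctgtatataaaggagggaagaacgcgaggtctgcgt
cmtr-1 (chrII:15025909-15026009, plus strand): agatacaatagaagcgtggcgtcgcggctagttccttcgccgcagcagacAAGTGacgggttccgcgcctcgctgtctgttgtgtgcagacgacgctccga
fbxl-2 (chrIII:4757136-4757236, plus strand): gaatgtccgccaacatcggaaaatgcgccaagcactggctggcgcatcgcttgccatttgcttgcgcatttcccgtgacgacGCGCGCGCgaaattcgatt
unc-16 (chrIII:9546109-9546209, plus strand): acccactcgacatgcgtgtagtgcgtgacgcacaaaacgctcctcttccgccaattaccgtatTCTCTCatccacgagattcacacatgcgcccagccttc
rsp-6 (chrIV:7791334-7791434, minus strand): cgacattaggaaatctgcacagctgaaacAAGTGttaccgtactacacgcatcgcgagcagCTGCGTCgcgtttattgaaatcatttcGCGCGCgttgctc
ceh-22 (chrV:10672782-10672882, plus strand): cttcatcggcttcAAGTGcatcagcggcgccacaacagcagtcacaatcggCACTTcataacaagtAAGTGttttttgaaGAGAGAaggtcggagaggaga
hmg-1.2 (chrIII:6280262-6280362, plus strand): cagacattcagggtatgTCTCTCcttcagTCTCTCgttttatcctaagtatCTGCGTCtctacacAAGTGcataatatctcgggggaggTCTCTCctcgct
sti-1 (chrV:773395-773495, plus strand): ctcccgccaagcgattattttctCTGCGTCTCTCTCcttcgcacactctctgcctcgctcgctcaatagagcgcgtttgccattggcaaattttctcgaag
ida-1 (chrIII:5755358-5755458, plus strand): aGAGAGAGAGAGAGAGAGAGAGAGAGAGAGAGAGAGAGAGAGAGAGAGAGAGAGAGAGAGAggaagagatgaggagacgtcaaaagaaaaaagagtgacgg
his-37 (chrV:9546961-9547061, plus strand): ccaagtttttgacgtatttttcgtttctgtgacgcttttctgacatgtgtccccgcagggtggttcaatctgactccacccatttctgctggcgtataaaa
The NK-2 core appears more than once at cdc-48.1, T07F10.3 and ceh-22. At rsp-6 and hmg-1.2, 3 of the 4 words occur within 1 window, and at ida-1 the GA repeat runs on without a break over much of the window. At his-37, the site of the strongest of the 14 peaks after cdc-48.1, none of the 4 words occurs. The windows shown were chosen partly for their words, so they hold them more often than the set does. Of the 42 windows of named peaks that could be shown, 26 held at least 1 of the 4 words. Those of scc-2 and ufd-3, both among the 20 strongest peaks, held none.

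The strongest of the 5'-proximal peaks stood at cdc-48.1, cox-5B and his-37. Signal is the authors' value for a region, of unstated scale, and was used only to rank and describe peaks within a list. The lists hold no read counts, so the depth behind each value is unknown. The highest value belonged to the peak 179 bp upstream of cdc-48.1, an AAA ATPase that unfolds ubiquitinated proteins, with a signal of 667 in the pooled list, 310 in replicate 1 and 368 in replicate 4. The peak 16 bp upstream of cox-5B, a cytochrome c oxidase subunit, had a signal of 636, with 203 and 431 in replicates 1 and 4. The peak 94 bp upstream of the histone gene his-37 had a signal of 510, with 167 and 342. In each of these 3 peaks replicate 4 gave the higher number, and the replicates' lists are not set on a common scale.

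Among the next peaks, Y39E4B.6 had a signal of 450.3, with 127 in replicate 1 and 329 in replicate 4, and its summit lay 32 bp upstream. The summit at ints-4, which encodes a subunit of the Integrator complex of small nuclear RNA processing, fell 34 bp downstream of the 5' end, inside the 5' untranslated sequence (signal 422; 162 and 252). Y39B6A.43 had a signal of 408, with 190.3 and 228, at 24 bp upstream. All 3 summits thus sat within 50 bp of the annotated end. The peak of bag-1, a co-chaperone gene, lay 177 bp upstream with a signal of 383 (166 and 209). The peak of lin-9, which encodes a subunit of the DREAM repressor complex, lay 170 bp upstream with a signal of 371 (137 and 232). Y73B6BL.29 (signal 359; 157 and 204) and T07F10.3 (353; 155 and 190.1) had summits 34 and 86 bp upstream. In these 4 peaks the values of the replicates lay closer to each other than at cox-5B.

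The peak of tos-1 had a signal of 343, with 108 in replicate 1 and 233 in replicate 4. The peak of scc-2, the cohesin loader, had 339 (136 and 195) and sat in an intron 152 bp upstream of the nearest 5' end. The peak of drap-1, whose human namesake is a subunit of a repressor of transcription initiation, also had a signal that rounds to 339, with 92.7 and 252. At scc-2 the value in replicate 1 was thus higher and that in replicate 4 lower than at drap-1. The peak of cmtr-1, an mRNA cap methyltransferase gene, had a signal of 327 (136 and 179.6) at 155 bp upstream, and that of fbxl-2, an F-box gene, 316 (124 and 194) at 74 bp upstream. The peak of Y18D10A.4 lay in coding sequence 51 bp downstream (296; 84.9 and 208). Signals from 263 to 279.9 belonged to ufd-3, a cofactor gene of the CDC-48 ATPase (122 and 159), vps-25, of the ESCRT-II complex (81.3 and 205), lrpr-1 (93.8 and 175) and Y38C1AA.12 (94.5 and 166). Of these 20 strongest peaks 18 were upstream of the 5' end, 15 were intergenic, and all 20 were among the 2328 strongest regions of both replicates.

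**Figure D1:**
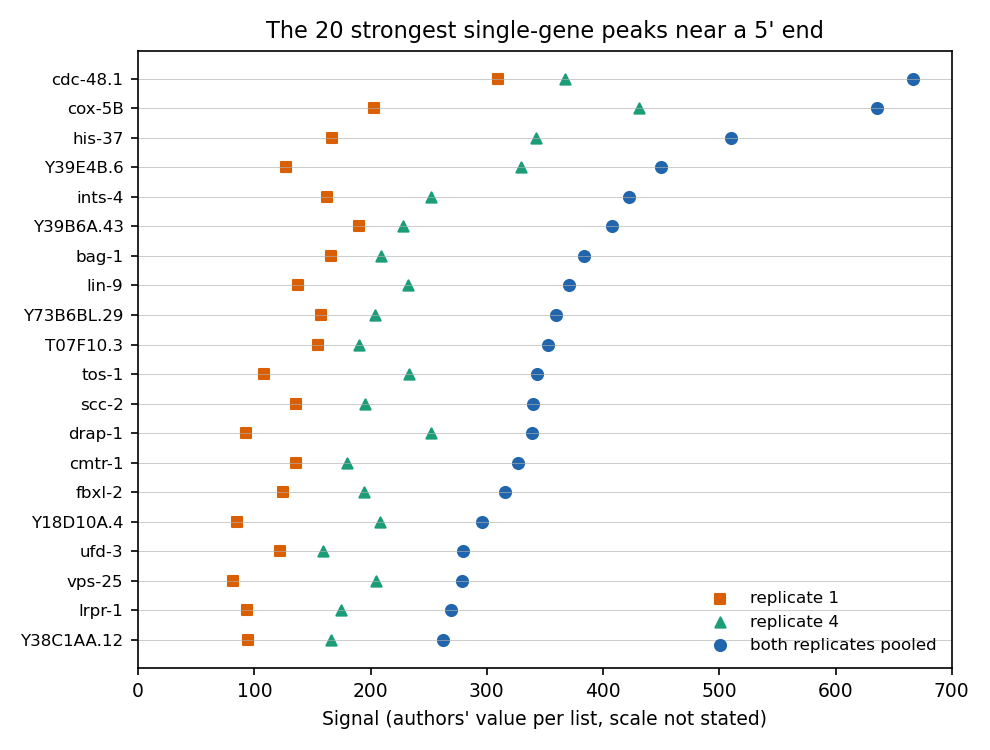
The 20 strongest 5'-proximal peaks, by gene from top to bottom, with the authors' signal (scale not stated) on the horizontal axis in replicate 1 (squares), replicate 4 (triangles) and the pooled list (circles). The pooled signal falls from 667 at cdc-48.1 to 263 at Y38C1AA.12, and replicate 4 lies above replicate 1 in each of the 20.

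Over all 258 peaks the signal ran from 91.8 to 667 with a median of 125.2 and quartiles of 106 and 177. There were 48 peaks over 200 and 15 over 300, so most of the set lay close to its lower edge. Single-gene autosomal peaks more than 200 bp upstream, of which there were 398, had a median of 141, and the 382 autosomal peaks shared by several genes had a median of 162. The 647 autosomal peaks outside promoters had a median of 124, so the 5'-proximal peaks resembled these in median signal. Within the set the signal hardly varied with distance, with a Spearman's rho of 0.0543 across the 258 peaks and medians of 121 for summits within 50 bp and 133 for those from 150 to 200 bp. Peaks are not replicates, and no p-value is given for differences between classes of peaks.

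The replicates were compared next. Of the 258 peaks, 188 (72.9%, 95% exact binomial interval 67.0 to 78.2, counting error only) were matched, by summits no more than 100 bp apart, in the top 2328 regions of replicate 1, beside 73.0% of all reproducible peaks. In replicate 4 the count was 198 (76.7%, 71.1 to 81.8), beside 83.0% of all peaks. In both replicates together it was 141 (54.7%, 48.4 to 60.8), beside 60.1% of all peaks. The set was thus near the background in replicate 1 and below it in replicate 4. Of the remaining peaks 47 were found among the strongest of replicate 1 only, 57 of replicate 4 only, and 13 of neither. The autosomal peaks shared by several genes stood at 74.3% in both replicates, and the single-gene peaks further upstream at 63.1%. The autosomal peaks outside promoters, whose median signal was like that of the set, stood lower at 52.1%. All these peaks were selected from the same replicates, so the shares describe the selection and are no independent check.

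The share found in both replicates fell with the pooled signal. Of the 65 strongest 5'-proximal peaks 64 were among the strongest regions of both replicates, of the next 64 it was 49, of the next 65 it was 25, and of the last 64 it was 3. The pooled signal comes from both replicates, so a peak high in it tends to be high in each, and the ranking itself favours this order. In the full list of replicate 1, 246 of the peaks had a matching summit, with signals from 13.7 to 310 and a median of 51.0. In that of replicate 4, 253 had one, with signals from 31.8 to 431 and a median of 82.5. Spearman's rho between the replicates was 0.472 over the 241 peaks matched in both and 0.566 over the 2186 reproducible peaks matched in both, as a description across peaks of the same 2 libraries.

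The largest differences in rank all had a low value in replicate 1. At panl-3, which encodes a subunit of a deadenylase complex, replicate 1 had a signal of 13.7 and rank 29976 of 30000, and replicate 4 a signal of 96.1 and rank 1012. At F56H9.9 replicate 1 had 14.1 and replicate 4 had 83.1. At txt-19 the values were 16.5 and 69.0. Of these 3 peaks, panl-3 and F56H9.9 were near the foot of the list of replicate 1, txt-19 had rank 20759 there, and all 3 were among the 2328 strongest regions of replicate 4. At tir-1, whose protein has a TIR domain and acts in innate immunity, the values were 17.9 and 101, and at ccch-1, which encodes a zinc finger protein, 19.0 and 70.9. A further peak, at Y43F8C.3, had a pooled signal of 231 and 189 in replicate 4 but no matching summit in the list of replicate 1. It is named because its values stood out.

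**Figure D2:**
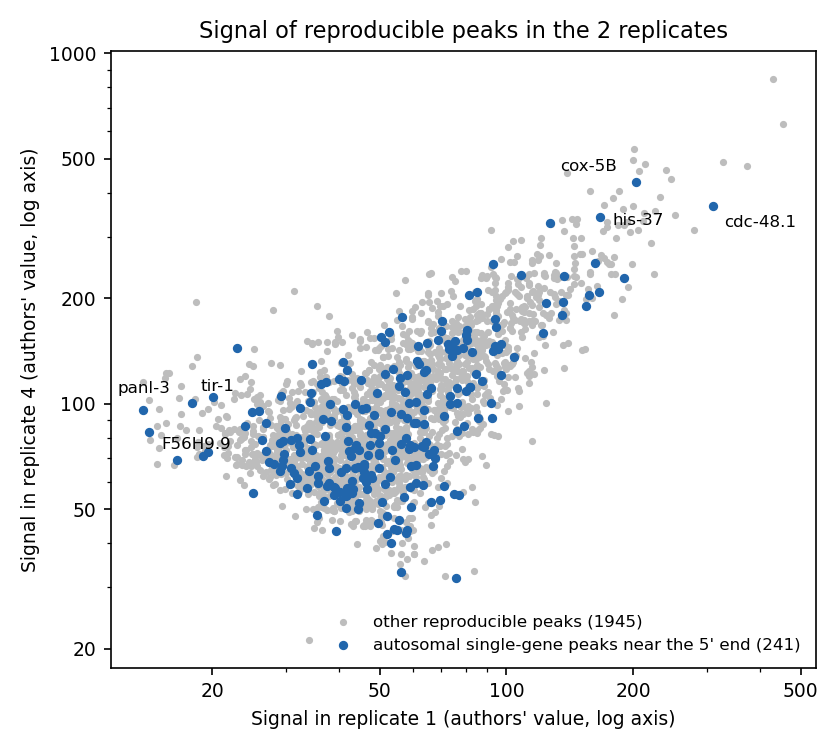
Authors' signal in replicate 1 (horizontal) and replicate 4 (vertical), both on log axes, for the 241 5'-proximal peaks matched in both lists (blue) and the other reproducible peaks (grey). The blue points lie within the grey cloud, with cdc-48.1 and cox-5B at the top and panl-3, F56H9.9 and tir-1 at the left, where replicate 1 was low.

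Most summits lay upstream of the 5' end. In all, 210 of the 258 (81.4%, 76.1 to 86.0) were upstream and 48 (18.6%) at or downstream, with 1 summit exactly at the end. The median position was 85 bp upstream, with quartiles of 150.75 and 17.25 bp upstream. From 151 to 200 bp upstream there were 65 summits, from 101 to 150 bp 48, from 51 to 100 bp 54, and from 1 to 50 bp 43. Downstream the counts fell from 26 in the first 50 bp to 3 in the last. The distribution ran on without a break across the 200 bp limit, so the set is a cut through a continuous spread of single-gene peaks.

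**Figure D3:**
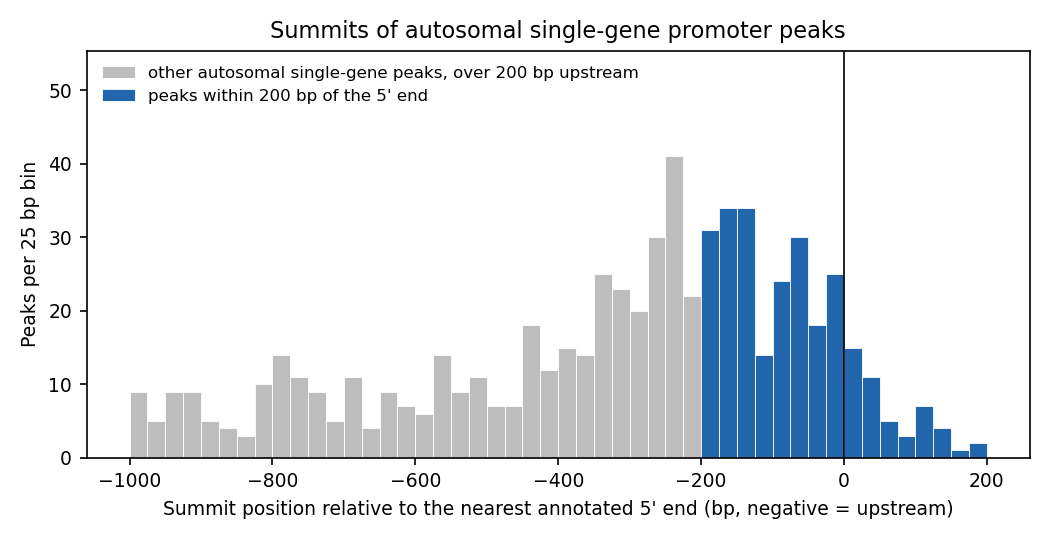
Autosomal single-gene promoter peaks clear of tRNA genes by summit position relative to the nearest annotated 5' end (bp, negative upstream), counted per 25 bp. The 258 peaks within 200 bp are blue and the 398 further upstream are grey, and the counts continue across the limit between them.

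Peaks on either side of the limit had like values. Just inside lay ufbp-1, at 200 bp upstream with a signal of 166 (63.8 in replicate 1 and 87.7 in replicate 4), and C49H3.6, also at 200 bp (125; 29.1 and 105). The third was ceh-22, an NK-2 class homeobox gene of pharyngeal muscle, whose summit lay 198 bp downstream in coding sequence (224; 80.2 and 157). Just outside lay ubl-1 at 201 bp upstream with a signal of 148, and plrg-1 (296) and tent-5 (187), both at 202 bp. The gene tent-5 also had a 5'-proximal peak, 122 bp downstream, with a signal of 143 (56.1 and 93.9).

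The annotation of the summits followed their side. Intergenic sequence held 162 (62.8%), all upstream, which the definitions largely fix, since a summit just downstream of a 5' end lies inside that gene. The 44 in 5' untranslated sequence (17.1%) comprised 34 downstream and 10 upstream of the nearest 5' end. Introns held 37 (14.3%), of which 33 were upstream of the nearest 5' end. Coding sequence held 11 (4.26%) and 3' untranslated sequence 4 (1.55%). In 15 cases (5.81%) the summit lay inside another protein-coding gene.

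The genes with a 5'-proximal peak more often had a gene of the same strand closely upstream than the annotation at large. A gene on the same strand ended within 500 bp upstream of 87 of the 255 (34.1%, 28.3 to 40.3), against 3344 of the 17242 autosomal protein-coding genes (19.4%). Within 1000 bp the shares were 42.0% and 30.0%. An upstream neighbour on the opposite strand was found for 39.6% and 45.6%, but a pair of close divergent genes shares its summits, and the rule on a single gene removes these. The same rule keeps summits between close genes of the same strand, so both differences are partly set by the choice of the peaks. The median gap to the upstream gene was 1270 bp for the 255 and 1020 bp for all. Fewer of the 255 had a single annotated 5' end, 109 (42.7%) against 72.4% of all, and more 5' ends give a gene more chances to hold a nearby summit.

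The spliced-leader acceptor was looked at as the consensus TTTCAG on the gene's strand in the 16 bases around the 5' end. It was present at 38 of the 258 nearest ends (14.7%, 10.6 to 19.7) and at 16.3% of all autosomal genes. Where it was present the median summit lay 144 bp upstream, with 33 of 38 upstream. Where it was absent the median was 74 bp, with 177 of 220 upstream. In these medians a summit downstream counts as negative, and the rule limits all positions to 200 bp. The median position was thus further upstream at ends with the acceptor word, as a description of 38 and 220 peaks.

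The 5 autosomes held 46 to 56 peaks each, with 55 peaks on I, 46 on II, 49 on III, 52 on IV and 56 on V. Per Mb this came to 3.65, 3.01, 3.55, 2.97 and 2.68 in the same order. The middle of each autosome, 1 of 3 parts of equal length, held 111 of the 258 (43.0%, 36.9 to 49.3), against 38.1% of autosomal protein-coding genes.

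The 5'-proximal peaks were set against lists of genes. Of the 17242 autosomal protein-coding genes, 255 (1.48%) had such a peak, and 1439 (8.35%) had any reproducible promoter summit. Pan-neuronal and synaptic genes, lin genes, genes of DNA replication and the cell cycle, and chromatin genes stood at shares several times the 1.48% of all genes. They were not alone in this. Tubulins (8.33%), the proteasome (6.06%) and the vacuolar ATPase (5.56%) were also well over it, on 1 or 2 genes each. All of these lists also had more promoter summits of any kind than the genome at large, and no test of a list was made. The lists were chosen with earlier results of these data known.

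Of 36 autosomal pan-neuronal and synaptic genes, 4 (11.1%) had a 5'-proximal peak and 11 any promoter summit. The peak of unc-16, a scaffold protein of axonal transport, lay 99 bp upstream with a signal of 255, 97.2 in replicate 1 and 148 in replicate 4. The peak of unc-14, a RUN domain protein needed for axon growth, lay 126 bp upstream with 247 (95.6 and 144). The peak of egl-21, the carboxypeptidase that processes neuropeptides, had 124 (40.9 and 96.6), and that of ida-1, a protein of dense-core vesicles, 111 (31.9 and 80.0). The first pair was thus over the set's upper quartile and the second pair below its median. The GA repeat was present at unc-16, unc-14 and ida-1.

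The lin genes, named for cell lineage defects and of mixed function, had 4 peaks of 41 genes (9.76%). Beside lin-9 they were lin-28, an RNA-binding regulator of developmental timing (156; 49.2 and 107), lin-45, the Raf kinase (121; 43.7 and 74.8), and lin-5, a spindle positioning protein (107; 46.5 and 57.4). Summits at lin-28 and lin-45 both lay 16 bp downstream of the 5' end, in untranslated sequence.

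Genes of DNA replication and the cell cycle had 7 peaks of 93 genes (7.53%). Beside cdc-48.1 and scc-2, the strongest were mdf-1, of the spindle checkpoint, with a signal of 152 (79.1 and 86.7), and smc-5, of a DNA repair complex, with 142 (75.0 and 55.3). The remaining 3 were pole-1, knl-2 and mcm-4. At smc-5 replicate 1 gave the higher value, unlike at the 20 strongest peaks. The summit of smc-5 lay 148 bp upstream and held the CG repeat, which was also present at pole-1 and mcm-4. Within 150 bp of the 5' end the list had 4 peaks in place of 7.

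Chromatin modifiers and remodellers had 8 peaks of 109 genes (7.34%). The peak of met-1, a histone H3 methyltransferase, had 221 (80.8 and 153), that of hmg-1.2, an HMG box protein, 196 (61.3 and 133), and that of swsn-3, a SWI/SNF subunit, 137 (66.7 and 66.6). The peak of spr-2, a relative of the human histone chaperone SET, had 126 (23.9 and 86.4). The remaining 4 were dot-1.1, nurf-1, prmt-5 and mes-2. Without replicate 4 the list had 4 peaks in place of 8. Thus met-1 and hmg-1.2 were above the set's medians in both replicates, 51.0 in replicate 1 and 82.5 in replicate 4. The peak of swsn-3 was below the median in replicate 4, and that of spr-2 was below it in replicate 1.

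The other lists with at least 3 peaks were splicing factors (3 of 72, 4.17%), histones (3 of 78, 3.85%) and nuclear hormone receptors (4 of 246, 1.63%, near the share of all genes). Among splicing factors, rsp-6, an SR protein, had 225 (69.9 and 161), mog-3 had 148 (41.1 and 116), and lsm-3, of the LSm ring, had 103 (57.8 and 42.7). Among histones, the linker histone genes hil-7 and hil-4 followed his-37 with 125 (36.7 and 90.5) and 106 (37.8 and 59.4). The 4 receptors, nhr-57, nhr-256, nhr-87 and nhr-56, had signals from 102 to 131. No receptor peak was thus above the set's upper quartile. Without replicate 4 the splicing factors had 5 peaks and the histones 1.

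A further 15 lists held 1 or 2 peaks each. Of 79 genes in the list of cytosolic ribosomal proteins, 57 had a promoter summit of any kind. Only rpl-24.2 (187; 63.7 and 123) and rla-1 (96.4) had a 5'-proximal one. The rest of their summits therefore fell outside the rule. Of 45 respiratory chain genes, 17 had a promoter summit, and nduf-11 (116; 59.2 and 50.9) joined cox-5B. The proteasome genes rpn-11 (164; 55.4 and 113) and pbs-3 (109; 47.8 and 61.6) and the nuclear pore genes npp-8 (215; 74.8 and 144) and npp-1 (96.5; 41.7 and 56.7) were found in their lists. The chaperone genes sti-1 and pfd-3, the mitochondrial ribosomal genes mrpl-28 and mrpl-55, and the traffic gene sec-24.1 with vps-25 had signals from 98.1 to 279. Single peaks were found at tba-2, an alpha tubulin gene, with 253 (70.3 and 172), at let-607 with 158, at vha-9 with 116 and at eef-1B.2 with 94.4. The F-box genes fbxa-24 and fbxb-72 had 140.5 and 106, and the chemoreceptor srh-2 had 123, the sole peak among 1207 chemoreceptor genes. The gene ceh-22 was the single member of both the pharyngeal and the homeobox lists.

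In 12 lists with 851 autosomal genes there was no 5'-proximal peak. They were mitochondrial protein import, aminoacyl-tRNA synthetases, ubiquitin conjugation, RNA polymerase and general transcription, body wall muscle, epidermal, intestinal and germline genes, major sperm proteins, C-type lectins, cuticle collagens, and neuropeptides. The longest was that of C-type lectins with 237 genes and the shortest that of mitochondrial protein import with 17. Only 1.48% of all autosomal genes had such a peak, so its absence from a short list is no result by itself. No absence was tested. In all, 55 of the 255 genes (21.6%, 16.7 to 27.1) were in at least 1 list. Of the 17242 autosomal protein-coding genes 3650 were, a like share, so membership of a list does not set the 255 apart.

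**Figure D4:**
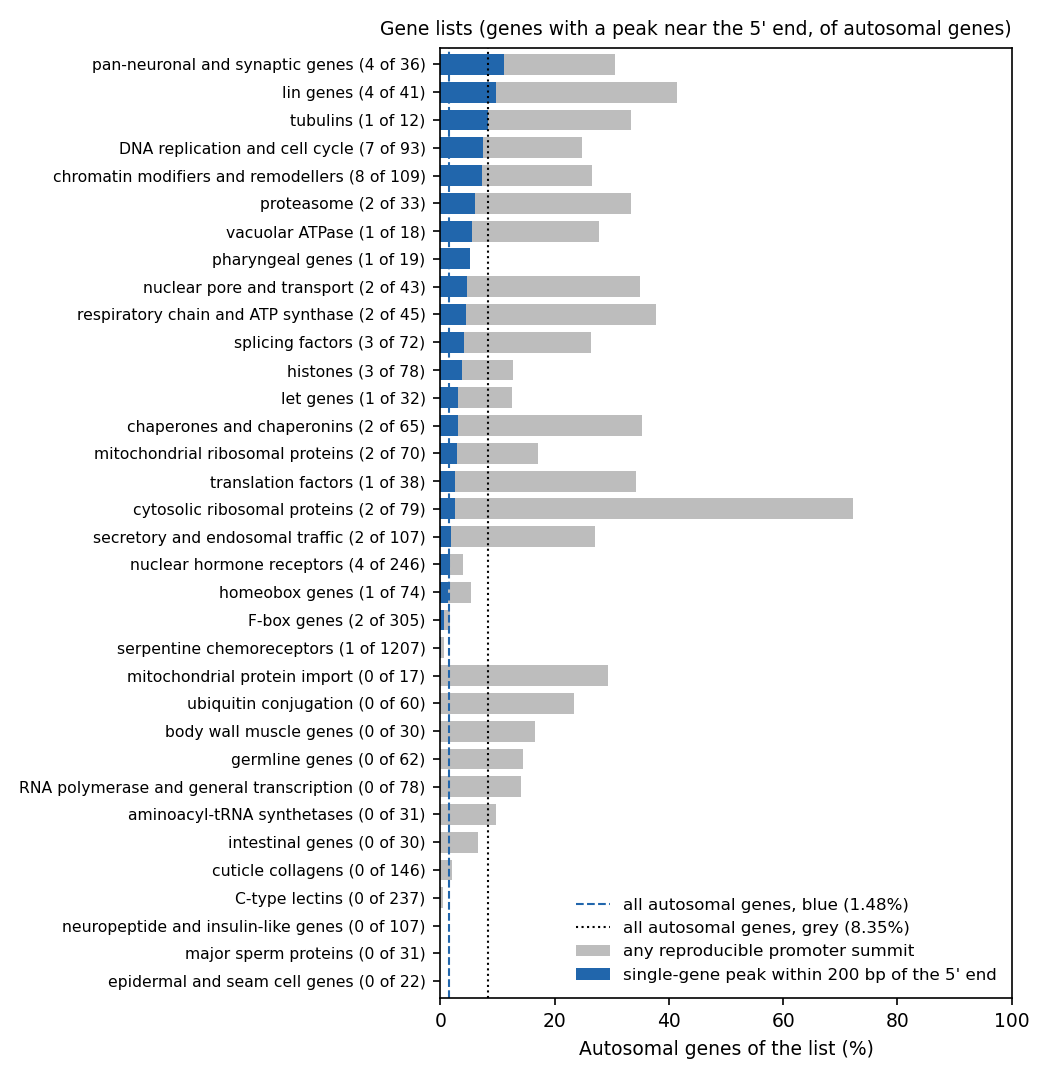
Percentage of the autosomal genes of each list with a 5'-proximal peak (blue) and with any reproducible promoter summit (grey), with the counts of blue in brackets. The vertical lines give the shares over all autosomal genes, 1.48% and 8.35%, and the pan-neuronal list is highest in blue at 11.1%, whereas cytosolic ribosomal genes are highest in grey with 57 of 79.

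The bases around the summits differed from those further out. The median GC content within 50 bp of the summit was 48.5%, against 34.7% and 36.6% in windows 300 bp upstream and downstream. At the same offsets from the most upstream annotated 5' end of each autosomal gene it was 33.7%. The mean in 25 bp steps peaked at the summit at 51.3%. The high GC content is not particular to the 5'-proximal peaks. Its median was 49.5% in single-gene peaks further upstream and 50.5% in peaks on the X chromosome. Autosomal peaks shared by several genes and those outside promoters each had 48.5%. Words rich in G and C have more chances to occur in such windows, and their part in the shares below was not tested.

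The NK-2 core AAGTG was found on either strand in 89 of the 258 windows (34.5%, 28.7 to 40.6), against 19.0% and 20.9% of the upstream and downstream flanks and 21.1% of the 17241 windows at all autosomal 5' ends. It was read on the gene's strand in 57 windows and on the other strand in 41. The share was 28.4% (24.0 to 33.1) in single-gene peaks further upstream and 28.5% in peaks shared by several genes, so the intervals of the 5'-proximal and the more distant peaks overlap. Peaks with the core had a median signal of 120.3 and those without it 131. At the summits shown above, cdc-48.1 and cmtr-1 hold the core and lin-9 and his-37 do not.

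The 3 other words were more sharply placed. GAGAGA was found in 74 windows (28.7%, 23.2 to 34.6), against 5.04% and 3.49% of the flanks and 7.57% at all 5' ends. CTGCGTC was found in 38 windows (14.7%, 10.6 to 19.7), against 0.581% of both flanks together and 1.57% at all 5' ends. GCGCGC was found in 29 windows (11.2%, 7.66 to 15.7), against 0.194% of the flanks and 1.19% at all 5' ends. Without replicate 4 the ratio of the summits to the flanks was 3.88 for GAGAGA, against 6.73 as reported. For CTGCGTC and GCGCGC, whose flank windows are few, the ratio ran from 10.4 to 26 with either replicate left out, against 25.3 and 58 as reported. These words are not particular to the 5'-proximal peaks. GAGAGA stood at 28.4% in the single-gene peaks further upstream and 37.1% in autosomal peaks outside promoters, CTGCGTC at 13.8% and 13.3%, and GCGCGC at 8.04% in both. At least 1 of the 4 words was present in 160 of the 258 windows (62.0%), against 23.6% and 24.4% of the flanks and 28.7% at all 5' ends. The GA repeat and the 7-base word were found together in 20 windows, as at hmg-1.2 and at sti-1, where CTGCGTC runs directly into a GA repeat and shares bases with it.

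Of the other promoter words, the GC box was also more common at the summits, the E box less clearly so, and the rest were not. GGCGGG, the core of the GC box, was found in 27 windows (10.5%), against 1.55% of the flanks and 2.23% at all 5' ends. CACGTG, the E box, was found in 11 (4.26%), against 1.36% of the flanks and 2.08% at all 5' ends. CCAAT, the CCAAT box, was found in 39 (15.1%), against 19.2% of the flanks. The words TATAAA for the TATA box, TTTTTT for a run of T and TTTCAG for the acceptor were less common at the summits than in the flanks. The TATA box was in 4.26% of windows against 12.8%, the T run in 16.7% against 45.7% and 33.3%, and the acceptor word in 5.81% against 21.7%. Here the acceptor word was counted on either strand. Of its 15 windows at the summits, 10 held it on the gene's strand and 5 on the other, so these are not counts of acceptors. Other peaks had like shares. In single-gene peaks further upstream the GC box stood at 8.04%, the TATA box at 2.76%, the T run at 15.3% and the acceptor at 5.28%. The E box stood at 2.51% there and at 6.03% in autosomal peaks outside promoters.

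**Figure D5:**
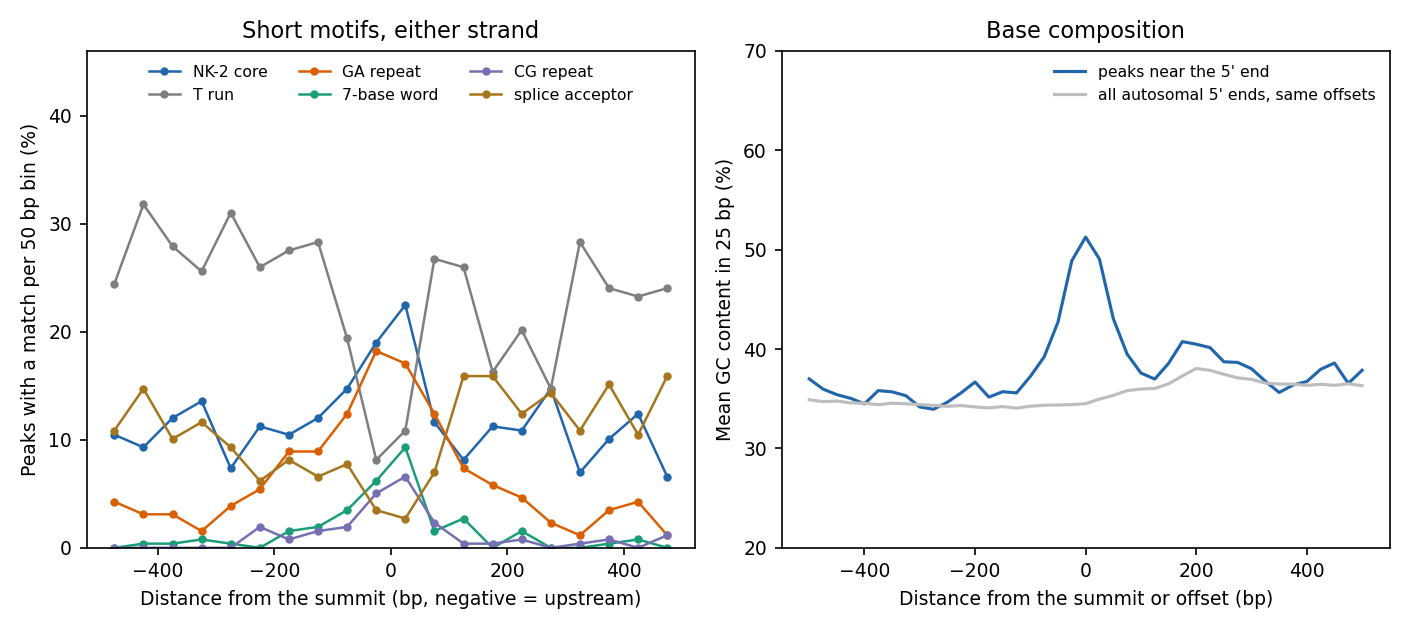
Left, percentage of the 258 5'-proximal peaks with a match to each word per 50 bp of distance from the summit (negative upstream), and right, mean GC content in 25 bp steps around the summits (blue) and at the same offsets from all autosomal 5' ends (grey). The NK-2 core, GA repeat, 7-base word and CG repeat are most frequent within 50 bp of the summit, where GC content reaches 51.3%. T runs and the splice acceptor word, counted on either strand, are least frequent there.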

How the data were processed

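ChIP-seq regions of 2 biological replicates of 1 group were used. Per the labels, the authors deposited 1 list of 30000 regions for each replicate, 1 of 30000 from both replicates pooled, and the 2328 reproducible regions kept by a threshold on the irreproducible discovery rate (IDR), on build ce11. The signal per region is as deposited by the authors, with its scale not stated. For the aligner, region caller and IDR cut-off, names and settings were not given in the sources used here. Read counts are not part of the lists, so depth is unknown, and intervals are exact Clopper-Pearson intervals at 95% for counting error only.

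Summits were placed on protein-coding genes of Ensembl release 115 by the 5' ends of all their transcripts, and sequence came from the WBcel235 assembly. Replicates were matched by summits within 100 bp, against the 2328 strongest regions of each. The 10 words were searched within 50 bp of the summit and in windows 300 bp to either side. Shares at all 5' ends used 1 end per gene, the most upstream annotated, whereas peaks were placed by the nearest of all ends. The placement code was checked on simulated data. The members, words and 34 gene lists were chosen with earlier results of these data known, so no pattern in them is independent evidence. No test was made, since there is 1 group and peaks are not replicates.

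The named genes are the 20 strongest peaks, up to 4 in lists with 3 or more peaks and up to 2 in others, the 3 on each side of the 200 bp limit, and the 5 with the largest difference in rank. Others were named to complete short counts, after their values were seen. Sequences were drawn from these, outside chromosome I and annotated untranslated sequence. Alternatives covered the distance, the promoter window, the overlap, each replicate alone, the stronger 1164 peaks, and the motif window and background. Use of coding transcripts alone was added after seeing the data. Plots were drawn with matplotlib 3.10.9, and the counts were made with pandas 2.3.3, numpy 2.4.6 and scipy 1.17.1 under Python 3.11.15.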

Additional observations from a re-analysis of the deposited data

How the results depend on the processing

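No paired analysis was possible because there is 1 group. The count of 258 peaks fell to 112 among the 1164 strongest reproducible peaks, a shorter list by construction, and the genes in any list from 55 to 26. The share found among the strongest regions of both replicates was 44.2% with a 50% reciprocal overlap, 28.3% with 1164 regions per replicate and 93.4% with all deposited regions. With each replicate alone the upstream share ran from 75.4% to 81.0%. For the words, values are ratios to the flanks. The NK-2 core (main value 1.73) had 1.36 in windows of 100 bp to either side and 1.44 to 1.84 with a replicate left out. The GA repeat (6.73) had 9.43 with 25 bp, 3.72 with 100 bp, 11.7 among the 1164 strongest, 3.68 against other promoters and 3.88 to 6.42 with a replicate left out. The 7-base word (25.3) had 11.3 with 100 bp, 16 among the 1164 strongest, 10.6 against other promoters and 12 to 24 with a replicate left out. The CG repeat (58, from a single flank window) had 7.6 with 100 bp, 10.8 against other promoters and 10.4 to 26 with a replicate left out. No ratio could be had for the 7-base word with 25 bp or for the CG repeat with 25 bp and among the 1164 strongest, where no flank window held them. Beyond these alternatives' own construction, the cause was not tested. Every ratio printed here stayed above 1. In single lists, chromatin genes had 4 with replicate 1 alone and 8 with replicate 4 alone, histones 1 and 2, splicing factors 5 and 3, DNA replication genes 4 within 150 bp, and no nuclear hormone receptor was left among the 1164 strongest. Use of coding transcripts alone, chosen after seeing the data, gave 259 peaks. Without read counts, absence from a replicate's strongest regions cannot be told from low depth.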

Other observations

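All 6-base words were counted at the 258 summits and in the flanks, and 912 were present in at least 5% of either. The highest ratios belonged to GCGCGC (58-fold), then GCGGAC (44), then CGCGCG (23), then CCGCAC (19), then GCAGAC (16), each on either strand. GCAGAC was found at 32 summits and in 4 flank windows, and the higher ratios rest on 1 or 2 flank windows each. The lowest ratios belonged to ATGAAT (0.115), then AAGCTT (0.0769), then ATTAAT (0.0714).

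Noncoding genes lay within 200 bp of some of these summits. A gene annotated as ncRNA was found at 22 of the 258 peaks (8.53%), drap-1, unc-16 and ceh-22 among them, against 21.1% of all reproducible peaks. A snoRNA gene, whose product guides RNA modification, was found at 5 (1.94%, at cmtr-1, fbxl-1, din-1, cogc-3 and D1086.3), against 3.39% of all. An snRNA gene was found at 1 (F08H9.3), a lincRNA gene at 1 (gei-4) and a piRNA gene at 1 (smc-5), 0.388% each, against 0.945%, 0.730% and 0.687% of all. The choice of peaks excluded those near tRNA genes.

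Of the 255 genes, 16 had a further reproducible promoter peak that is not 5'-proximal, as at tent-5. A pair of 5'-proximal peaks was found in 3 genes. C39E9.8 had signals of 118 and 104. The potassium-chloride cotransporter gene kcc-2 had 111 and 104, and kin-1, the catalytic subunit of protein kinase A, had 105 and 99.5. All 6 signals of these pairs were below the median of the set, and at kcc-2 neither peak had a summit in both replicate lists. A further reproducible summit lay inside 31 of the 255 genes (12.2%). For the 16 and the 31 genes no share over all autosomal genes was counted, so neither number can be called high or low.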
